A study of Homo sapiens with 8 samples.

Results

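Target genes of YAP and TEAD were followed in endothelial-like EA.hy926 cells that had lost a piece of a super-enhancer. The 9 genes were CTGF, CYR61, ANKRD1, AMOTL1, AMOTL2, AJUBA, AXL, CRIM1 and NT5E, each taken by its symbol from a table of 27946 genes, with the transcript of the highest mean level where a gene had several. They are widely used as readouts of YAP and TEAD. The rule picks them by name, but the names were chosen with earlier results of these data known. EA.hy926 is an immortalized hybrid line, the product of a fusion between umbilical vein endothelial cells and a lung carcinoma line. In ΔE2 the enhancer E2 was deleted with Cas9 and guide RNAs delivered as ribonucleoprotein, and in ΔSE12313-b the enhancer SE12313-b, another part of the same super-enhancer, which had shown no activity in the reporter assay. After removal of ribosomal RNA, libraries were made from 3 clones of ΔE2, 3 clones of ΔSE12313-b and, with 2 libraries, from control EA.hy926 cells. The controls of the proliferation assay had taken up guide RNAs and were passaged alongside the clones, but it is not stated whether the sequenced control RNA was from these cells. Every deletion library came from cells grown up from 1 cell and the controls were not described as clones, so clonal derivation and deletion cannot be told apart, and the spread between the control libraries may be technical.

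YAP and its relative TAZ (encoded by WWTR1) are coactivators that do not bind DNA themselves but sit on promoters and enhancers through TEAD factors. The kinases of the Hippo pathway phosphorylate them in dense or rounded cells and keep them out of the nucleus, while spread cells, stiff matrix and tension let them enter it. In endothelium they are known for their response to flow and for a role in sprouting of new vessels, and several of their targets code for proteins that act back on the pathway or on the matrix around the cell.

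TEAD factors bind the letters GGAATG, and the 250 bases before the start of each kept RefSeq transcript were read from GRCh37 and searched for them on both strands. A match was found in 4 of the 9 genes, CTGF, CYR61, ANKRD1 and AXL, against 10.4% of the 13790 promoters of the same length of all genes tested. The promoters of CTGF, CYR61 and ANKRD1, the genes most often used as readouts, are shown from 5′ to 3′ on the strand of the gene, with the matches in capitals. On the opposite strand the match reads CATTCC.
CTGF promoter, chr6:132272519-132272768, minus strand: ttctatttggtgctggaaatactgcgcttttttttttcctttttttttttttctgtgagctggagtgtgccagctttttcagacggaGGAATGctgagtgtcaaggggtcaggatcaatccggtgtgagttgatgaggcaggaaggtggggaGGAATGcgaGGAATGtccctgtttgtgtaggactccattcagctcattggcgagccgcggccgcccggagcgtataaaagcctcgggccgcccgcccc
CYR61 promoter, chr1:86046194-86046443, plus strand: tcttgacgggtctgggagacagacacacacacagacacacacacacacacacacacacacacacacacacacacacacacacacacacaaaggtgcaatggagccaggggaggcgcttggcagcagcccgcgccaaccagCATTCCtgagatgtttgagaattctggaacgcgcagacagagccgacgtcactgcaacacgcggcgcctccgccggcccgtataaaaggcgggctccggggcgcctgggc
ANKRD1 promoter, chr10:92681033-92681282, minus strand: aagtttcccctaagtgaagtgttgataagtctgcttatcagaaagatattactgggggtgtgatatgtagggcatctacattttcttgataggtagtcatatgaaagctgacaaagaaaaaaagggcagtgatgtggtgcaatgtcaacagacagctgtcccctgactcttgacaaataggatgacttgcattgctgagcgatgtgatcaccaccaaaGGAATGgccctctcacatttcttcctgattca
CTGF held 3 matches, which began at positions -163, -98 and -89 from the start, and 3 or more were found in 6 of the 13790 promoters (0.0435%). CYR61 held 1 match on the opposite strand, at -110 to -105, and ANKRD1 held 1, at -32 to -27. The single match of AXL lay on the opposite strand, at -212 to -207 from a start inside the gene, and the 250 bases before the outer start of AXL held none. For AJUBA the kept start also lay inside the gene, and the 250 bases before its outer start held 1 match. The AP-1 motif TGANTCA, which overlapped no TEAD match, was found only in ANKRD1 among the 9, at -7 to -1, and in 4.60% of all promoters. The CArG box of SRF was in 0 of the 9 and in 1.02% of all promoters. A match is a description of these letters, and for the other 5 genes its absence says only that the letters are not in this window.

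Between 12067557 and 19101148 reads stood behind each library, recovered from the deposited FPKM (reads per kilobase of transcript, scaled to the reads of the library), and each of the 9 genes rested on 391 to 15748 reads in every library. The control libraries differed little beyond counting error (chi-square per degree of freedom 1.19), while clones of 1 deletion differed by 3.98 to 22.8. Replicate 2 stood farthest from the other ΔE2 clones and replicate 3 from the other ΔSE12313-b clones. Of 10 endothelial markers 8 were detected, with a summed level of 371 to 372 FPKM in control, 390.0 to 570.0 in ΔE2 and 372 to 532 in ΔSE12313-b, and CLDN5 was listed at 0 in all libraries. Keratins of the carcinoma parent (KRT7, KRT8, KRT18) carried nearly all of the summed level of 8 epithelial markers, which was 361 to 363 in control, 1084 to 1210.1 in ΔE2 and 811 to 1069 in ΔSE12313-b, with CDH1 listed at 0. Fibroblast markers summed to at most 6.05 FPKM and leukocyte markers to at most 2.74, both highest in ΔE2, through THY1 and LYZ, while DCN, LUM and CD3E were listed at 0. Of the 8 detected endothelial markers 3 were upregulated and 1 was downregulated in ΔE2, and 2 and 1 in ΔSE12313-b, beside 19.6% and 22.6% of DEGs among all genes tested. In ΔE2 2 of these 4 were left with each library centred, after quantile normalization, and without ΔE2 replicate 2 or either control. All 3 keratins were upregulated in both (in ΔSE12313-b 1 of them after quantile normalization). The part of these markers in the changes given here was not tested, and in bulk RNA fewer cells of a kind and less RNA per cell cannot be told apart.

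In control cells the 9 genes covered a wide range of levels per length. AXL stood highest at 187 ± 0.443 FPKM (SD, n = 2), followed by CYR61 (133 ± 2.18), NT5E (86.0 ± 0.117), CRIM1 (28.1 ± 0.10), AJUBA (24.0 ± 0.688), ANKRD1 (22.2 ± 0.245), CTGF (16.8 ± 0.572), AMOTL1 (10.5 ± 0.132) and AMOTL2 (6.74 ± 0.342). No neighbours in this order overlapped in the controls. In both deletions ANKRD1 moved from the sixth place to the first, at 309 ± 109 FPKM in ΔE2 (SD, n = 3) and 206 ± 87.2 in ΔSE12313-b, although its clones overlapped with those of the next gene, CYR61 in ΔE2 and AXL in ΔSE12313-b. NT5E went from the third place to the sixth in both, where it overlapped with AJUBA.

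Each deletion was first set against the control, which asks how these genes differ once the enhancer is lost, and both comparisons share the same 2 control libraries. A DEG had an adjusted p under 0.05 by limma with Benjamini-Hochberg adjustment over 13790 genes, as in every adjusted p given here, and a change of at least 2-fold on the scale of log2(FPKM + 0.1). In ΔE2, 3 of the 9 genes were upregulated (CTGF, ANKRD1, AMOTL2) against 11.2% of all genes tested, and 1 was downregulated (NT5E) against 8.36%. In ΔSE12313-b, 2 were upregulated (ANKRD1, AMOTL2) against 14.7% of all genes, and 1 was downregulated (NT5E) against 7.83%. The median log2 change of the 9 genes was 0.53 in ΔE2 and 0.24 in ΔSE12313-b, beside 0.14 and 0.27 over all genes tested. Without regard to the size of the change, 6 of the 9 had an adjusted p under 0.05 in ΔE2, beside 54.1% of all genes, and 4 in ΔSE12313-b, beside 59.4%.

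**Figure D1:**
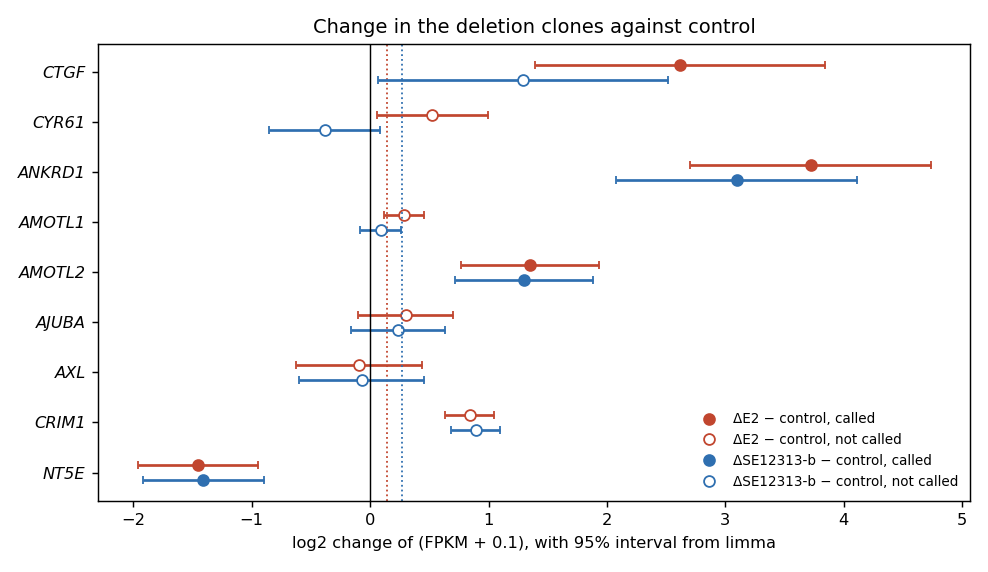
Difference of log2(FPKM + 0.1) between the clones of each deletion and the control, with the 95% interval from limma, for ΔE2 (red) and ΔSE12313-b (blue). Filled points are DEGs, open points are not, and dotted lines are the medians of all genes tested, 0.14 and 0.27. ANKRD1 has the largest rise of the 9 genes in both deletions and NT5E is the only DEG below 0, while the ΔSE12313-b values of AMOTL1 and AJUBA, 0.09 and 0.24, turn below 0 when each library is centred or quantile normalized.

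The secreted proteins came first. CTGF (connective tissue growth factor, NM_001901, chr6:132269317-132272518, minus strand) codes for a matrix-associated protein that acts on adhesion and growth factors and is the usual reporter gene of YAP. Its level was 17.2 and 16.4 FPKM in the control libraries, 126, 53.7 and 162 in ΔE2 replicates 1 to 3, and 58.4, 53.7 and 22.1 in ΔSE12313-b replicates 1 to 3. All clones lay above both controls, and the lowest ΔE2 clone was level with the middle ΔSE12313-b clone. CTGF rose 6.14-fold in ΔE2, by 2.62 ± 0.53 on the log2 scale (SE; limma, adjusted p = 0.00397). In ΔSE12313-b its difference of 1.29 ± 0.53 (95% interval 0.07 to 2.51) missed the threshold, with a limma, adjusted p = 0.0658. The latter depended on single clones and on the scaling. Without ΔSE12313-b replicate 3 the difference was 1.74 (limma, adjusted p = 0.0146), and without ΔE2 replicate 2, which enters only through the shared estimate of the spread, it stayed at 1.29 with a limma, adjusted p = 0.0263. In the other 18 alternatives CTGF was no DEG in ΔSE12313-b. The difference was 1.00 with each library centred (limma, adjusted p = 0.145) and 0.87 after quantile normalization (limma, adjusted p = 0.192). Without ΔSE12313-b replicate 1 it was 1.04 (limma, adjusted p = 0.171) and without replicate 2 it was 1.10 (limma, adjusted p = 0.156).

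CYR61 (NM_001554, chr1:86046444-86049648, plus strand), a relative of CTGF that binds integrins and promotes angiogenesis, was among the most abundant of the 9 genes in the control, at 135 and 132 FPKM. It stood at 205, 160.1 and 217 in the ΔE2 clones and at 128, 107 and 78.7 in the ΔSE12313-b clones. Thus every ΔE2 clone lay above both controls and every ΔSE12313-b clone below them. Neither difference from the control passed the test, at 0.53 ± 0.20 in ΔE2 (95% interval 0.06 to 1.00, limma, adjusted p = 0.0583) and -0.38 ± 0.20 in ΔSE12313-b (interval -0.85 to 0.09, limma, adjusted p = 0.139). The adjusted p depended on the setting, while the change stayed under 2-fold in all 20 alternatives in both deletions. In ΔSE12313-b the adjusted p by limma was 0.0245 with each library centred (-0.67), 0.00603 after quantile normalization (-0.93) and 0.0474 without ΔSE12313-b replicate 1 (-0.54), and without ΔSE12313-b replicate 3 the difference was -0.19. In ΔE2 the adjusted p was under 0.05 in 5 of 20 alternatives, among them without ΔE2 replicate 2 (0.66), and quantile normalization left a difference of 0.07.

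Of the nuclear and muscle ankyrin-repeat proteins, ANKRD1 (NM_014391, chr10:92671857-92681032, minus strand) gave the largest change of the 9 genes. ANKRD1 is a cofactor of transcription known from heart muscle and a strong target of YAP in many cells. It stood at 22.0 and 22.4 FPKM in the controls, at 377, 183 and 367 in ΔE2, and at 267, 244 and 106 in ΔSE12313-b. Even the lowest clone of each deletion exceeded both controls several-fold. ANKRD1 rose 13.2-fold in ΔE2 (log2 change 3.72 ± 0.44, limma, adjusted p = 0.000273), a change above those of 98.9% of all genes tested, and 8.55-fold in ΔSE12313-b (3.10 ± 0.44, limma, adjusted p = 0.000560). Under all 20 alternatives the log2 change lay between 3.40 and 4.06 in ΔE2 and between 2.67 and 3.52 in ΔSE12313-b.

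Angiomotin-like proteins tie YAP to tight junctions and actin and are themselves induced by it. AMOTL2 (NM_001278685, chr3:134074187-134093427, minus strand) was at 6.98 and 6.50 FPKM in the controls, at 18.7, 13.7 and 20.2 in ΔE2 and at 20.6, 19.2 and 11.8 in ΔSE12313-b. All 6 clones were above both controls, and the deletions overlapped almost fully. It rose 2.55-fold in ΔE2 (1.35 ± 0.25, limma, adjusted p = 0.00270) and 2.46-fold in ΔSE12313-b (1.30 ± 0.25, limma, adjusted p = 0.00276), where quantile normalization left 0.98, just under 2-fold. The 3 transcripts of AMOTL2 share most of their reads and had nearly the same values, and the microRNA gene MIR6827 lies within it on the same strand, with a mean level of 3.13 FPKM. AMOTL1 (NM_001301007, chr11:94501508-94609918, plus strand), the other member of this pair, was far steadier, with 10.4 and 10.6 FPKM in the controls, 12.3, 12.7 and 13.5 in ΔE2 and 11.0, 11.5 and 11.2 in ΔSE12313-b. In ΔE2 its log2 difference was 0.28 ± 0.07 (limma, adjusted p = 0.0126), under 2-fold, and the adjusted p was 0.151 with each library centred (0.13), 0.510 after quantile normalization (0.06) and 0.0522 with a replicate block. In ΔSE12313-b it was 0.09 ± 0.07 (limma, adjusted p = 0.329). There it turned to -0.20 with each library centred (limma, adjusted p = 0.0364) and to -0.26 after quantile normalization (limma, adjusted p = 0.0112), both under 2-fold.

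AJUBA, a LIM-domain protein that holds LATS kinases at cell junctions under tension, was a DEG in neither deletion. Its kept transcript (NM_198086, chr14:23440383-23446432, minus strand) stood at 23.5 and 24.5 FPKM in the controls, 29.0, 27.4 and 32.5 in ΔE2 and 31.8, 32.8 and 21.8 in ΔSE12313-b. For this transcript the ΔE2 clones were all above the controls, while ΔSE12313-b replicate 3 was below them. The log2 difference was 0.30 ± 0.17 in ΔE2 (95% interval -0.10 to 0.70, limma, adjusted p = 0.176) and 0.24 ± 0.17 in ΔSE12313-b (-0.16 to 0.64, limma, adjusted p = 0.264), and both were below 0 after quantile normalization, at -0.0062 and -0.20. Without ΔSE12313-b replicate 3 the ΔSE12313-b difference was 0.43 (limma, adjusted p = 0.00717) and the ΔE2 adjusted p was 0.0222, and with only the groups compared the latter was 0.0385. A short transcript at the 5′ end of the gene had lower levels, 14.7 and 12.2 FPKM in the controls, 13.6, 5.96 and 10.2 in ΔE2 and 17.7, 13.6 and 9.56 in ΔSE12313-b. A longer transcript was at 24.3 and 24.0 FPKM in the controls, 28.8, 24.0 and 30.0 in ΔE2 and 32.7, 31.6 and 21.2 in ΔSE12313-b. For it ΔE2 replicate 2 was not above the controls, and with the longest transcript the ΔE2 difference was 0.19 (limma, adjusted p = 0.435). This longer transcript shares the start of the short one, and the kept start lies inside the gene. The 250 bases before this outer start held 1 match to GGAATG, against none before the kept start.

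The cell surface members went different ways. AXL (NM_001278599, chr19:41732660-41767672, plus strand), a receptor tyrosine kinase for GAS6, had 187 and 188 FPKM in the controls, 201, 132 and 204 in ΔE2 and 215, 189 and 139 in ΔSE12313-b. In each deletion 1 clone was below the controls and the others were above them, so the groups overlapped. Its log2 difference was -0.09 ± 0.23 in ΔE2 (95% interval -0.62 to 0.44, limma, adjusted p = 0.753) and -0.07 ± 0.23 in ΔSE12313-b (-0.60 to 0.46, limma, adjusted p = 0.802), and either turned to 0.11 without its lowest clone. After quantile normalization they were -0.51 and -0.59 (limma, adjusted p = 0.105 and 0.0660).

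CRIM1 (NM_016441, chr2:36583370-36778278, plus strand), a transmembrane protein that binds bone morphogenetic proteins and is found in endothelial cells, was at 28.1 and 28.2 FPKM in the controls, at 46.7, 51.0 and 53.8 in ΔE2 and at 55.6, 53.6 and 47.8 in ΔSE12313-b. The clones of both deletions lay together, apart from the controls. The log2 difference of 0.84 ± 0.09 in ΔE2 (limma, adjusted p = 0.000172) and 0.89 ± 0.09 in ΔSE12313-b (limma, adjusted p = 0.000100) passed the adjusted p but not the 2-fold limit, so CRIM1 was a DEG only at a limit of 1.5-fold, in both deletions. Quantile normalization left differences of 0.53 and 0.43.

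NT5E (CD73, NM_002526, chr6:86159302-86205509, plus strand), the surface enzyme that turns AMP into adenosine, was the single downregulated gene of the 9. It stood at 85.9 and 86.1 FPKM in the controls, at 25.7, 42.0 and 28.6 in ΔE2 and at 30.2, 28.0 and 40.1 in ΔSE12313-b. All 6 clones lay far below both controls, and the deletions overlapped. NT5E fell by 1.45 ± 0.22 on the log2 scale in ΔE2 (2.74-fold, limma, adjusted p = 0.000957) and fell by 1.41 ± 0.22 in ΔSE12313-b (2.65-fold, limma, adjusted p = 0.000917). Relative to the median of all genes its log2 change was -1.59 and -1.68, and its call held under all 20 alternatives in both deletions.

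The deletions were then compared with each other, which asks whether clones without E2 differ from clones without the enhancer that was inactive in the reporter assay. Of the 9 genes 0 were DEGs at 2-fold, against 1.6% of all genes higher in ΔE2 and 2.63% lower (4.23% in all), and 1 gene (CYR61) had an adjusted p under 0.05, beside 26% of all genes. CYR61 was 1.88-fold higher in ΔE2 than in ΔSE12313-b (0.91 ± 0.18 on the log2 scale, 95% interval 0.49 to 1.33, limma, adjusted p = 0.00960), and the clones did not overlap, with 160.1 FPKM the lowest in ΔE2 and 128 the highest in ΔSE12313-b. It passed 2-fold with each library centred (1.04), after quantile normalization (1.00), without ΔE2 replicate 2 (1.04) and without ΔSE12313-b replicate 1 (1.07). CTGF differed by 1.33 ± 0.47 (interval 0.24 to 2.42, limma, adjusted p = 0.0747), and its clones overlapped. Without ΔE2 replicate 2 this difference was 1.80 (limma, adjusted p = 0.0188), and without ΔSE12313-b replicate 3 it was 0.88 (limma, adjusted p = 0.175), so its call turned on the clones. ANKRD1 differed by 0.62 ± 0.39 (interval -0.28 to 1.53, limma, adjusted p = 0.281), and by 0.20 without ΔSE12313-b replicate 3 and 0.97 without ΔE2 replicate 2. AMOTL2 differed by 0.05 (interval -0.47 to 0.57) and NT5E by -0.04 (interval -0.50 to 0.41), and both changed sign under alternatives, NT5E to 0.085 under centring and AMOTL2 to -0.20 without ΔSE12313-b replicate 3.

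Clones of 1 deletion spread more widely in these genes than the controls did. The coefficient of variation of CTGF was 48.5% in ΔE2 and 44.1% in ΔSE12313-b, against 3.41% in the control, and that of ANKRD1 was 35.4% and 42.4% against 1.10%. In ΔE2 replicate 2, 6 of the 9 genes had their lowest level of the 3 clones, as did 38.8% of all genes tested, and in ΔSE12313-b replicate 3 this held for 7 of the 9, against 39.6% of all genes. On the log2 scale and relative to the mean of the deletion, CTGF stood at -0.94 in ΔE2 replicate 2 and at -0.89 in ΔSE12313-b replicate 3, ANKRD1 at -0.68 and -0.85, and AMOTL2 at -0.34 and -0.50. NT5E went the other way in the same clones, to 0.42 and 0.31. AMOTL1 stayed between -0.06 and 0.07 in every clone and CRIM1 between -0.13 and 0.09. At the upper end, 7 of the 9 genes were highest in ΔE2 replicate 3, against 40.8% of all genes, and 6 were highest in ΔSE12313-b replicate 1, against 33.2%.

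The same clones lay at the upper end in the endothelial markers. All 8 detected endothelial markers were highest in ΔE2 replicate 2, as were 36.3% of all genes, and 7 of the 8 in ΔSE12313-b replicate 3, as were 36.1%, with medians of 0.45 and 0.29 above the means of the deletions on the log2 scale. ΔSE12313-b replicate 2 stood apart as well. All 8 were lowest there, against 33.9% of all genes, with a median of -0.26. Of 13 other targets of YAP and TEAD, 9 were lowest and 3 highest in ΔE2 replicate 2, against 38.8% and 36.3% of all genes. In ΔSE12313-b replicate 3 the counts were less one-sided, with 7 lowest (53.8%, against 39.6%) and 4 highest (30.8%, against 36.1%). Whether these differences between clones share a source with those of the 9 genes was not tested. WWTR1, which encodes TAZ, stood at 39.6 and 41.2 FPKM in the controls, at 18.6, 34.1 and 18.9 in ΔE2 and at 30.6, 31.0 and 49.3 in ΔSE12313-b, so that it too was highest in ΔE2 replicate 2 and ΔSE12313-b replicate 3. YAP1, with 17.1, 19.2 and 17.7 FPKM in ΔE2 and 15.3, 14.7 and 12.0 in ΔSE12313-b, was also highest in ΔE2 replicate 2 but lowest in ΔSE12313-b replicate 3. WWTR1 and YAP1 belong to a list of 16 genes for Hippo kinases and for YAP and TEAD factors. Of these 16, 8 were lowest and 7 highest in ΔE2 replicate 2, against 38.8% and 36.3% of all genes. In ΔSE12313-b replicate 3, 10 were lowest and 3 highest, against 39.6% and 36.1%.

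Of 15 other genes often named as targets of YAP and TEAD, 13 were tested. Among these 2 were upregulated and 1 downregulated in ΔE2, where 19.6% of all genes were DEGs, and 1 and 1 in ΔSE12313-b, where 22.6% were, with median log2 changes of 0.41 and -0.07. MYOF, a membrane protein of the ferlin family, rose in both deletions, from 52.6 ± 0.677 FPKM (SD, n = 2) to 112 ± 3.30 in ΔE2 and 147 ± 3.38 in ΔSE12313-b (SD, n = 3), by 1.09 and 1.49 on the log2 scale, but by less than 2-fold in ΔE2 with each library centred (0.93) and in both after quantile normalization (0.72 and 0.97). GADD45A, a stress-induced inhibitor of growth, fell in both, from 68.8 ± 0.588 to 28.6 ± 2.20 and 26.2 ± 4.95 FPKM (log2 change -1.27 and -1.41). CCDC80, a secreted matrix protein, rose in ΔE2 from 6.74 ± 0.305 to 15.4 ± 0.747 FPKM (1.18, or 0.99 after quantile normalization), and in ΔSE12313-b, at 9.90 ± 2.46, its log2 difference was 0.52. Between the deletions FOXF2 (1.66) and RBMS3 (1.06) were higher in ΔE2, both at low levels. Neither was a DEG with a pseudocount of 1, and 1 DEG of the list was left with a mean FPKM of at least 1, with the longest transcript, without ΔE2 replicate 3 and without ΔSE12313-b replicate 2.

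Of 16 genes for Hippo kinases and for YAP and TEAD factors, all of which were tested, 2 were upregulated and 1 downregulated in each deletion, beside 19.6% and 22.6% of DEGs among all genes, with medians of 0.08 and 0.19. NF2, which brings LATS kinases to the membrane, rose from 7.38 ± 0.344 FPKM to 22.9 ± 3.83 and 24.0 ± 2.99 (log2 change 1.60 and 1.68), and TEAD3 fell from 3.78 ± 0.328 to 1.12 ± 0.0856 and 1.40 ± 0.301 (-1.67 and -1.39, the latter just under 2-fold with a pseudocount of 1). VGLL3, a TEAD-binding cofactor, rose in ΔE2 by 1.49, and in ΔSE12313-b it was 0.44 higher (limma, adjusted p = 0.117). TEAD4 rose in ΔSE12313-b by 1.25, under 2-fold with each library centred (0.96) or quantile normalized (0.82). In ΔE2 TEAD4 was 0.55 higher, under 2-fold (limma, adjusted p = 0.000972).

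Relatives and partners of the 9 genes, a list of 16 with 12 tested, gave 0 upregulated and 3 downregulated genes in ΔE2, beside 11.2% and 8.36% of all genes, and 3 upregulated and 2 downregulated genes in ΔSE12313-b, beside 14.7% and 7.83%. With either control library left out, 1 gene was a DEG in ΔE2 and 3 were in ΔSE12313-b. The CCN family split. NOV, a relative of CTGF and CYR61, rose from 1.94 ± 0.128 FPKM to 18.3 ± 1.94 in ΔSE12313-b (log2 change 3.17), while in ΔE2, at 3.41 ± 0.511, it was 0.77 higher, under 2-fold. WISP2 fell in ΔE2 by 1.68, at levels near 1 FPKM and below, and missed the threshold in 8 of the 20 alternatives. GAS6, the ligand of AXL, fell in ΔE2 from 4.07 ± 0.0354 to 1.54 ± 0.114 FPKM (-1.35). In ΔSE12313-b, at 2.58 ± 0.488, GAS6 was 0.65 lower, under 2-fold (limma, adjusted p = 0.0119). TYRO3, a receptor of the family of AXL, rose in ΔSE12313-b from 1.91 ± 0.0827 to 6.48 ± 0.346 (1.71). In ΔE2, at 3.77 ± 0.457, TYRO3 was 0.94 higher, under 2-fold (limma, adjusted p = 0.000467). Beside NT5E, ENTPD1, which supplies AMP from ATP, rose in ΔSE12313-b (2.03) from 0.187 ± 0.0467 to 1.10 ± 0.388 FPKM, and the adenosine receptor ADORA2A fell there (-1.66). With a pseudocount of 1 both were under 2-fold (0.81 and -0.85), and by limma ENTPD1 had an adjusted p of 0.0576 without control replicate 2 and ADORA2A of 0.131 without control replicate 1, 0.0511 without ΔSE12313-b replicate 1 and 0.0567 with a replicate block. In ΔE2 the log2 differences of ENTPD1 and ADORA2A were 1.04 and -0.48 (limma, adjusted p = 0.112 and 0.418). AMOT, the third angiomotin, was listed at 0 in both controls and at a mean of at most 0.0097 FPKM in either deletion.

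SRF with its cofactor MRTF responds to actin tension as YAP does and shares targets with it. Of 9 genes on a list of its targets 6 were tested, of which 2 were upregulated and 1 downregulated in ΔE2, and 3 and 1 in ΔSE12313-b, beside 19.6% and 22.6% of DEGs among all genes. CNN2 (1.14 and 1.68) and TPM1 (1.09 and 1.56), both binders of actin, rose in both deletions, and ACTA2, smooth muscle actin, fell in both, from 5.59 ± 0.961 FPKM to 0.860 ± 0.670 and 0.924 ± 0.345 (-2.80 and -2.52). With each library centred or quantile normalized, only 1 gene of this list was a DEG in ΔE2.

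Genes around the 9 genes were looked at as a group. For those that start within 10 Mb, the median log2 change around ANKRD1 was 0.26 in ΔE2 and 0.85 in ΔSE12313-b (103 genes), beside 3.72 and 3.10 for ANKRD1. Around CTGF it was -0.09 and -0.54 (49 genes), around AMOTL2 0.17 and 0.61 (99 genes) and around NT5E 0.27 and -0.22 (41 genes), so the neighbourhood of CTGF lay on the other side of 0 from the gene in both deletions and that of NT5E in ΔE2. Around CRIM1 it was 0.29 and 0.33 (99 genes). Whether the clones carry gains or losses of these regions was not tested.

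By Pearson correlation of log2(FPKM + 0.1) over the 8 libraries, the genes most like CTGF were INPP4B (r = 0.99) and KBTBD8 (0.99), those most like CYR61 were DHX38 (0.99) and MYO9B (0.98), and those most like ANKRD1 were TICRR (0.995) and MYBL1 (0.995). None of these is among the lists named here. The 8 libraries are shared by all pairs and fall into 3 groups, so that r follows the group means as well as the clones, and with 13790 genes to choose from the highest r is high by selection.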

How the data were processed

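RNA was sequenced from 8 EA.hy926 libraries (2 control, 3 ΔE2 and 3 ΔSE12313-b), grouped by their labels. The submitters' processing notes name Trim Galore 0.4.4, STAR 2.5.4b, featureCounts and GRCh37. The authors deposited FPKM for 65572 RefSeq transcripts, and the tool, RefSeq release and strand setting behind this table were not given in the sources used here. Their own DEG calls rest on other counts, so the count test of the study was not repeated. FPKM and the deposited transcript lengths gave back whole reads (100% within 0.1 read), 12067557 to 19101148 per library.

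Each gene was represented by its transcript of highest mean FPKM. Those with at least 0.5 FPKM in at least 2 libraries (13790) were tested as log2(FPKM + 0.1) by limma 3.58.1 under R 4.3.3 (1 model with 3 groups, trend, two-sided), with Benjamini-Hochberg adjustment. Fold changes of low genes are understated on this scale. The limits for a DEG were an adjusted p of 0.05 and 2-fold. The p-values cover the spread between these libraries. On simulated data of 13452 genes for ΔE2 against control, 96 of 100 genes changed 4-fold and 16 unchanged genes were called. The simulation gave all groups the same spread, unlike the real clones and controls, so these counts may not carry over to them. Alternatives were other pseudocounts (0.01, 1), filters on low values, scalings and transcripts, voom on the recovered reads, fits without the trend, with only the groups compared or with a replicate block, 1.5-fold, and each library left out. Same-numbered replicates of different groups were not paired (7 correlations from -0.08 to 0.11). The 9 genes, always named, and the lists (other targets, Hippo factors, relatives and partners, SRF targets, cell markers) were chosen with earlier results of these data known. From each list, genes called in both deletions, or up to 2 with the largest rise and fall, are named. Some others, among them TYRO3, AMOT, YAP1 and WWTR1, are named beyond this rule. ANKRD23, a relative of ANKRD1 downregulated in ΔSE12313-b (-1.05), lost its call in some alternatives and is not named elsewhere.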

Additional observations from a re-analysis of the deposited data

Results flagged for a closer look

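Clones of the deletions differed in CYR61, which was higher in ΔE2 than in ΔSE12313-b by 0.91 on the log2 scale (limma with Benjamini-Hochberg adjustment, adjusted p = 0.00960). Every ΔE2 clone lay above both controls and every ΔSE12313-b clone below them, although neither deletion passed the test against the control.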

How the results depend on the processing

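Over 20 alternatives, the number of DEGs among the 9 genes stayed between 4 and 5 in ΔE2 (main value 4) and between 2 and 4 in ΔSE12313-b (3). Between the deletions it was 0, but 1 with each library centred, after quantile normalization, with voom on the recovered reads (CTGF) and at 1.5-fold (CYR61 in the others), and 0 to 2 with a library left out (2 without ΔE2 replicate 2, CTGF and CYR61, and 1 without ΔSE12313-b replicate 1). A block for the replicate number (replicate block) left 4, 3 and 0 DEGs among the 9 genes. In the main fit, DEGs made up 19.6%, 22.6% and 4.23% of all genes tested in these comparisons. At 1.5-fold, 3109 of the 13790 genes tested were up and 1945 down in ΔE2, and 4124 and 1678 in ΔSE12313-b. A count among the 9 genes is thus to be read beside the share of all genes under its setting.

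Of 540 single values, 502 kept direction and side of the thresholds, 11 came to pass them, 1 no longer did (AMOTL2 in ΔSE12313-b, quantile) and 26 changed sign, each of them a gene that was no DEG in that comparison. Against the control these were AJUBA in ΔE2 (quantile, -0.0062) and ΔSE12313-b (centred -0.050, quantile -0.20), AMOTL1 in ΔSE12313-b (centred -0.20, quantile -0.26), and AXL in ΔE2 (-0.20 to 0.11 with a library left out, 0.11 without ΔE2 replicate 2) and in ΔSE12313-b (-0.21 to 0.11, 0.11 without ΔSE12313-b replicate 3). Between the deletions these were AXL (centred 0.11, quantile 0.080), CRIM1 (centred 0.080, quantile 0.10), NT5E (centred 0.085, quantile 0.091) and AJUBA (longest transcript -0.0254). With a library left out, differences between the deletions ranged from -0.13 to 0.17 for AJUBA, -0.20 to 0.22 for AMOTL2, -0.20 to 0.19 for AXL, -0.12 to 0.0039 for CRIM1 and -0.25 to 0.11 for NT5E.

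Centring turned the balance of all DEGs, from 1544 up and 1153 down to 1170 and 1464 in ΔE2, and from 2032 and 1080 to 1201 and 1570 in ΔSE12313-b. FPKM is scaled to the reads of the library, and the share of them on the kept transcripts was lowest in control and highest in ΔSE12313-b. It was 8151528 of 12696174 and 7802376 of 12067557 in control, and 13374180 of 19101148, 12223127 of 17124021 and 9981653 of 13616469 in ΔE2. In ΔSE12313-b it was 12588452 of 16085524, 11147141 of 14814165 and 12463688 of 15890259. The part of this share in the balance of DEGs and in the medians of all genes was not tested. All DEGs were 1065 up and 653 down in ΔE2, 1411 and 593 in ΔSE12313-b and 100 and 140 between the deletions (221 and 362) with a pseudocount of 1, and 3109 and 1945, 4124 and 1678, and 492 and 1139 at 1.5-fold. Among the lists, relatives and partners had 0 DEGs in ΔE2 (3 before) and 2 in ΔSE12313-b (5 before) with a pseudocount of 1, then 5 in ΔE2 at 1.5-fold, and 3 in ΔSE12313-b with a mean FPKM of at least 1 or without ΔSE12313-b replicate 1. Hippo factors went from 3 to 7 in ΔE2 and to 5 in ΔSE12313-b at 1.5-fold. Other targets went from 2 to 1 in ΔSE12313-b after quantile normalization. The causes were not tested. The control has 2 libraries, and where 1 was left out the other was assumed to vary like the clones.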
